A study of Mus musculus with 12 samples.

Results

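The protocadherin beta cluster of the mouse lies on chromosome 18, between the alpha and the gamma cluster of the same gene family. It was examined in neural progenitors that lack Setdb1 and in wild-type progenitors. The H3K9me3 regions described here are the rows on chromosome 18 of the authors' deposited table whose gene symbol is a Pcdhb gene or Pcdha7-g. They number 45 of the 50654 regions listed for the whole genome, 21 of them under 16 Pcdhb symbols and 24 under Pcdha7-g. H3K27ac was taken from the peaks of 6 peak lists in a window of 450 kb on the same chromosome that holds all beta genes and ends past Taf7. All coordinates are in mm10.

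Clustered protocadherins are cell-surface adhesion proteins. Each neuron expresses its own small choice of them, and contact between matching sets lets a neuron recognise and avoid its own branches. Alpha and gamma proteins are built from a variable exon joined to constant exons shared within the cluster, whereas each beta gene encodes its whole protein in a single exon. SETDB1 is a methyltransferase that places H3K9me3, a mark of silent chromatin, while H3K27ac is found at promoters and enhancers in use.

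The cells were neurosphere cultures, free-floating cultures of progenitors, grown from the ganglionic eminence of C57BL/6 E15.5 embryos, with 100000 nuclei per library and 3 animals per genotype and mark. The knockout (KO) is labelled Nestin-KO and the control WT. Nestin is a gene of neural progenitors, and the labels give neither the Cre line nor the alleles that the WT animals carry. In the H3K9me3 set every KO animal was male, while WT had 2 females and 1 male, so sex is partly confounded with genotype and the effects of both cannot be told apart. The number before the hyphen in the sample titles, whose meaning the labels do not give, is also uneven there, since 1 of its values occurs only in WT and 1 only in KO. For H3K27ac both of its values occur in both genotypes, replicate 1 was female, and replicates 2 and 3 were male in both genotypes. Setdb1 (chromosome 3, 95323525 to 95357202) overlapped 0 listed H3K9me3 regions and had an H3K27ac peak in or within 1 kb of it in 3 KO and 2 WT libraries, which checks neither the deletion nor the labels.

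The symbol Pcdha7-g does not stand for a single alpha exon here. In RefSeq for GRCm38 it is a synonym of Gm38667, a locus from 36973802 to 37841873 that runs across the alpha, beta and gamma clusters. All 24 regions with this symbol were classed by the authors as gene body, and none of them overlapped a Pcdhb gene. They are therefore the space before, between and after the beta genes.

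The table gives 3 normalised read counts per genotype for each region, without saying which animal each belongs to. They are called here by their place in the list. Each value is a whole multiple of what 1 read was worth at its position (100% of low values, within 0.1 reads), so the reads behind a value could be recovered. At the first KO position the 45 regions held 2 to 104 reads with a median of 15, against a median of 58 at the second and the third. The WT medians were 38, 101 and 87 reads. The first KO value is thus the least precise.

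H3K9me3 was lower in KO at every listed region of the beta block. The authors' deposited table listed 45 of the 45 regions as lower at an adjusted p of 0.05 or less and 0 as higher, where 71.1% of all listed regions and 96.3% of the 1373 on chromosome 18 were lower. At 0.001 or less the 45 were again all listed, against 68.4% of all. Across the 45 regions the KO mean was 29.9% to 63.2% of the WT mean. The median log2 fold change was -1.0, beside -0.94 for all listed regions, -1.17 for all regions listed as lower and -1.28 for chromosome 18. The median difference was thus smaller in size than that of the chromosome. The authors selected the listed regions for a difference between these same libraries, and H3K9me3 that did not differ is not listed.

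The 3 KO values all lay below the 3 WT values at 38 of the 45 regions, or 84.4%, against 54.2% of all listed regions and 77.1% on chromosome 18. Of the 7 regions that overlapped, 5 did so only through the third KO value. limma, a linear model on log2(value + 1) fitted over all listed regions with Benjamini-Hochberg adjustment, uses the spread between animals, which the authors' p does not. It passed 10 of the 45 as lower (22.2%, against 14.9% of all listed regions and 26.2% of those on chromosome 18), 4 at Pcdhb genes and 6 under Pcdha7-g. The limma adjusted p of these 10 lay between 0.0471, the smallest of any listed region, and 0.0492. Passing and not passing therefore differed by little at several regions. A further 21 of the 45 had an unadjusted p of 0.05 or less without passing after adjustment, which makes 31 in all. Such a p with a lower KO level was found at 24563 of the 50654 listed regions and at 1010 of the 1373 on chromosome 18. limma-voom, run on the recovered reads, passed 43 (95.6%, against 58.0% of all and 87.4% on chromosome 18). It gives more weight to values with more reads, and the relative depth of the KO positions was 17.1%, 100% and 51.9%. The second, deepest position held the lowest KO value at 75.6% of the 45 regions, against 35.5% of all. limma-voom was not run without it, so its part in the count of 43 was not tested.

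The limma calls depended on which values were included. Without the third KO value 40 regions passed, and without any other single value 0 passed, although 16 to 28 regions then still had an unadjusted p of 0.05 or less. All 45 fold changes stayed below 0 in each of these fits. The counts over all listed regions in these fits are not given here, so the changes cannot be called particular to the block. Rescaling each listed position to its median ratio moved log2 fold changes up by a median of 0.79. Under it limma passed 0 regions (1 at an unadjusted p of 0.05), and a test on summed values like the authors' called 16 lower and 0 higher, or 35.6% against 38.3% of all listed regions and 63.4% on chromosome 18. That scaling sets the typical listed region, which was lower, to no change.

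**Figure D1:**
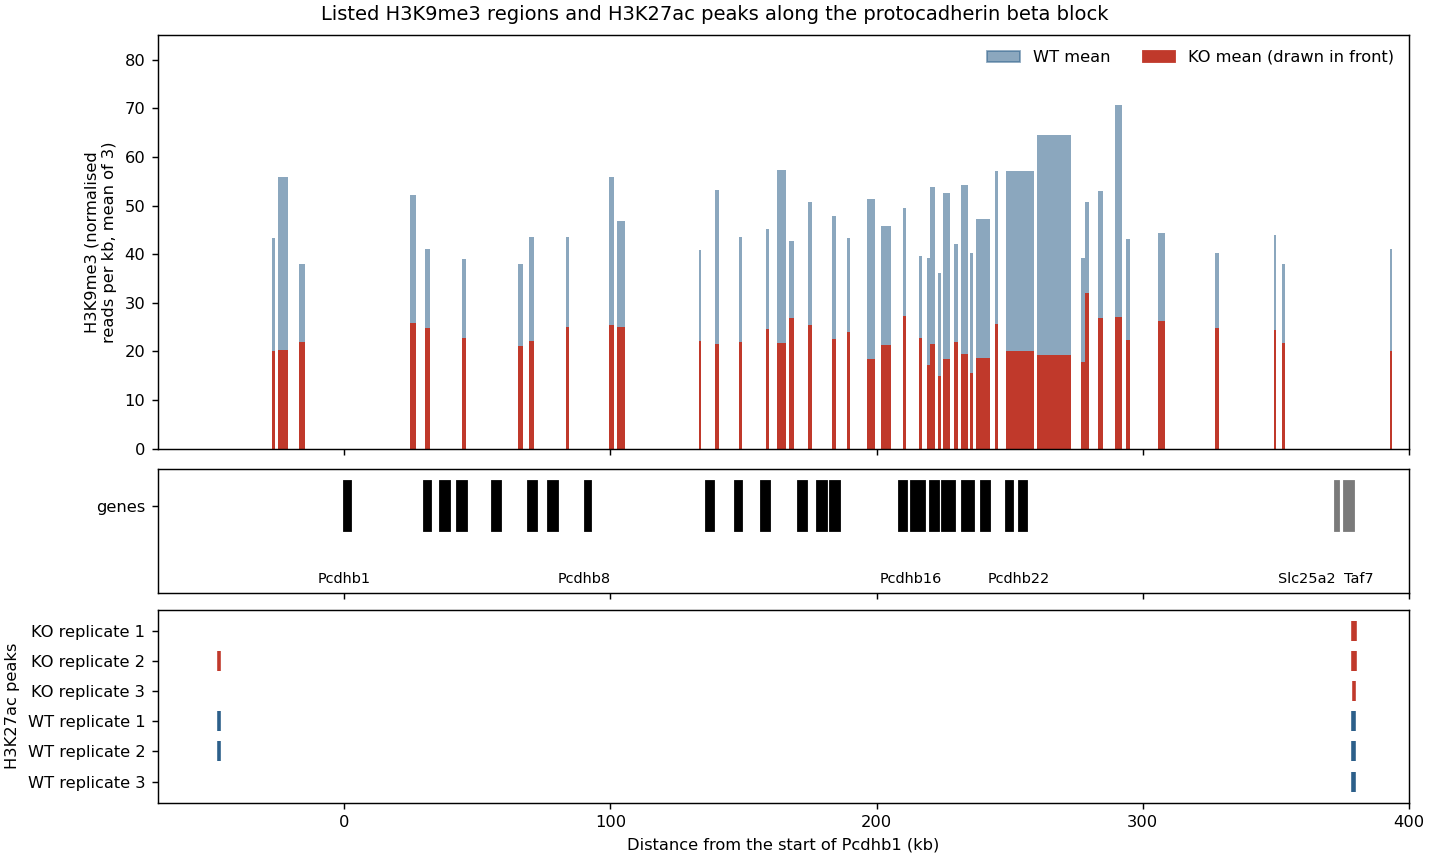
The x axis is the distance from the start of Pcdhb1 in kb. The upper panel shows each of the 45 H3K9me3 regions as a bar as wide as the region, with the WT and KO means in normalised reads per kb, the middle panel the 22 Pcdhb genes (black) with Slc25a2 and Taf7 (grey), and the lower panel each H3K27ac peak as a tick per library. The regions are densest at the last beta genes, all KO means lie below the WT means, and the H3K27ac ticks fall outside the beta genes.

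The listed regions were not spread evenly over the beta genes, which says where listed differences lay and not where all H3K9me3 lay. The 45 regions covered 102.4 kb of the 421 kb between 37237701 and 37658700, or 24.3%. Of the 22 beta genes (37264998 to 37521419), 14 were overlapped by a listed region. Between Pcdhb1 and Pcdhb8 the 6 regions covered 10.8% of the sequence. From there to Pcdhb16, 15 regions covered 22.3%. Past Pcdhb16 to the end of Pcdhb22, a stretch of 38.4 kb, 10 regions had their centres, with full lengths of 28.5 kb together. The last of them runs past the end of Pcdhb22, so the share covered was below 74.3%. The median log2 fold change followed the same order, at -0.82, -1.0 and -1.34. In the same order limma passed 0 of 6, 3 of 15 and 4 of 10 regions, beside 14.9% of all listed regions and 26.2% on chromosome 18. The 3 are under Pcdha7-g and lie between beta genes, while the 4 are under Pcdhb symbols. The differences between these stretches were not tested.

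By position, 8 beta genes had no listed region over them, namely Pcdhb1, Pcdhb3, Pcdhb5, Pcdhb7, Pcdhb8, Pcdhb9, Pcdhb12 and Pcdhb13. The last 3 of these have a row in the table because a region upstream of their start carries their symbol. Their nearest listed region of any symbol was 292 bp from Pcdhb9, 647 bp from Pcdhb12 and 1817 bp from Pcdhb13. Pcdhb21 is the reverse case, with no row of its own but with its whole length inside the region listed under Pcdhb22. Pcdhb1 was the farthest from any region, at 14798 bp, and sat in the longest gap of the block, 39.6 kb from 37250201 to 37289800.

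At most of the overlapped genes the overlapping regions began inside the gene, past its first base. Of the 14 genes overlapped, the first base was covered at 4, Pcdhb19, Pcdhb20, Pcdhb21 and Pcdhb22, which are the last 4 of the cluster. At the other 10 the covered part began 180 to 3033 bp past the start. The authors' classes put 4 of the 21 regions under Pcdhb symbols within 1 kb of a gene start, 15 within 3 kb and 2 in the gene body. Some of these sit upstream of the named gene, as does 1 of the 2 regions under Pcdhb6 (37330301 to 37332000). Pcdhb17 (37483901 to 37484900) and Pcdhb18 (37488101 to 37489100) each also have a region within 1 kb of the start that ends before it.

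Regions under Pcdhb2, Pcdhb4 and Pcdhb6 were listed between -0.98 and -0.73. At Pcdhb2 (37295501 to 37297400) the KO values were 61.1, 25.3 and 54.6 normalised reads and the WT values 63.8, 97.6 and 72.5. The first KO value came close to the lowest WT value, and the authors' log2 fold change was -0.73. At Pcdhb4 (37309401 to 37310700) the KO values were 20.4, 13.1 and 55.5 and the WT values 42.5, 62.3 and 47.1. Here the third KO value lay above 2 of the WT values. The region inside Pcdhb6 (37334501 to 37336200) had 20.4, 43.6 and 48.8 reads in KO and 74.5, 74.6 and 73.2 in WT, 37.6 ± 15.1 against 74.1 ± 0.77 (SD, n = 3), with no overlap. None of these regions passed limma (adjusted p = 0.101, 0.111 and 0.0616).

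Regions at the genes from Pcdhb9 to Pcdhb16 were listed between -0.67 and -1.09 under their Pcdhb symbols. Pcdhb14 (37448401 to 37449600) had the largest of these differences, with 25.5, 18.8 and 37.0 reads in KO and 53.2, 60.7 and 58.7 in WT. The groups did not overlap there (limma log2 fold change -1.11 ± 0.35, SE, adjusted p = 0.0539). Pcdhb12 (37432001 to 37433900) had the smallest, at 73.9, 25.7 and 53.8 reads in KO and 83.3, 82.8 and 77.6 in WT. All KO values were still below all WT values. At Pcdhb11 (37423501 to 37424600) the KO values of 25.5, 15.3 and 40.3 overlapped the WT values of 37.2, 71.4 and 40.6. Pcdhb15 (37474901 to 37476200) overlapped as well, with 40.8, 23.5 and 42.0 in KO and 54.95, 97.6 and 40.6 in WT. The second WT value was the high one at both. At Pcdhb9, Pcdhb10, Pcdhb13 and Pcdhb16, listed at -0.88, -1.0, -1.0 and -0.80, the genotypes did not overlap. Pcdhb9 had 12.7, 24.4 and 36.1 reads in KO and 42.5, 54.1 and 38.4 in WT, and Pcdhb10 had 20.4, 16.6 and 28.6 in KO and 40.8, 57.4 and 32.6 in WT. Pcdhb13 had 45.9, 25.3 and 35.3 in KO and 67.4, 91.9 and 53.7 in WT, and Pcdhb16 had 20.4, 26.6 and 42.0 in KO and 51.4, 59.1 and 44.2 in WT. The gap between the highest KO and the lowest WT value was narrow at Pcdhb9 and Pcdhb16. None of the regions under these 8 symbols passed limma.

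The last genes of the cluster, Pcdhb17 to Pcdhb22, held the 4 regions under Pcdhb symbols that passed limma. The cut was narrow, since another region under Pcdhb19 (37500001 to 37501200) did not pass at a limma adjusted p of 0.0502. At Pcdhb18 (37490101 to 37492400) the KO values were 45.9, 44.0 and 37.8 normalised reads and the WT values 101, 144 and 118. The KO values were close together and all far below WT, 42.6 ± 4.21 against 120.9 ± 21.4 (SD, n = 3; limma log2 fold change -1.47 ± 0.28, SE, adjusted p = 0.0471). At Pcdhb19 (37496801 to 37499500) the KO values were 56.0, 27.03 and 74.8 and the WT values 97.5, 205 and 136. The mean fell from 146 ± 54.5 to 52.6 ± 24.1 (SD, n = 3; limma adjusted p = 0.0489). The authors' deposited table also gives the fold change of 1 window of 1 kb per region, and here it was -2.34, the lowest window value of the 45 regions.

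Pcdhb20 (37502501 to 37507500) had 91.7, 54.1 and 133.6 reads in KO and 213, 299 and 195 in WT, without overlap (limma log2 fold change -1.40 ± 0.36, SE, adjusted p = 0.0473). The region under Pcdhb22 (37513501 to 37524000) spanned 10.5 kb and covered Pcdhb21 and Pcdhb22 whole. Its KO values were 265, 86.3 and 279.9 and its WT values 573, 715 and 511. The second KO value was a low one, and even the highest KO value was well under the lowest WT value (210.4 ± 107.7 against 599.6 ± 104.7, SD, n = 3; limma adjusted p = 0.0474). At Pcdhb17 (37485201 to 37486900) the first KO value, 58.6, was just above the first WT value, 58.5, although the other KO values were 18.3 and 32.8 and the other WT values 116 and 101. That region was listed at -1.33 and did not pass limma (adjusted p = 0.0559). The region with the lowest WT mean of the block was also here, under Pcdhb18 (37488101 to 37489100), with 7.64, 10.5 and 26.9 reads in KO and 37.2, 39.4 and 31.9 in WT. Its first KO value stood for 3 reads.

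**Figure D2:**
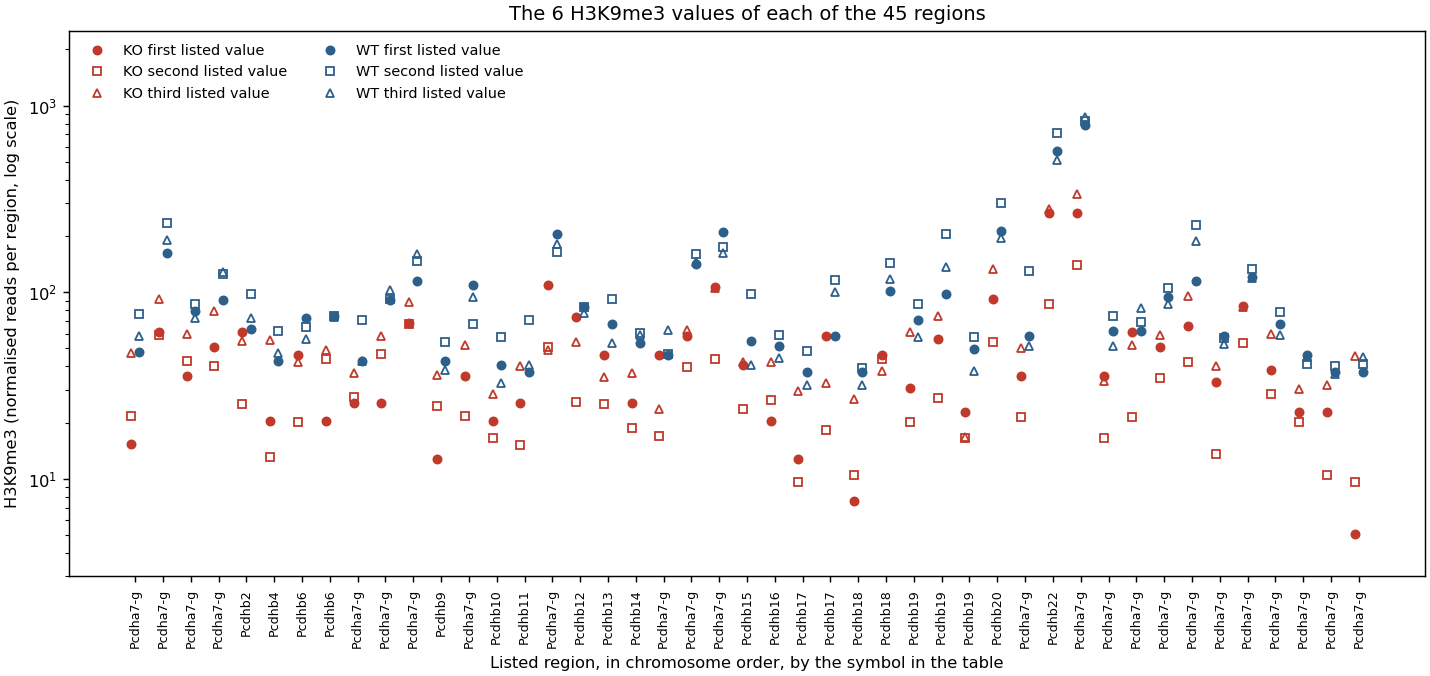
Each of the 45 regions is a column, in chromosome order and labelled by its symbol in the table, and the y axis is the normalised read count on a log scale. Red marks are the 3 KO values and blue marks the 3 WT values, by listed position. In 38 columns every red mark lies under every blue mark, and the open red squares of the second KO position are the lowest in 34.

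The largest difference of the block lay past the last beta gene. The region from 37525301 to 37538100, listed under Pcdha7-g, began after the end of Pcdhb22 and was 12.8 kb long, the longest of the 45. It held 265, 139 and 337 normalised reads in KO and 787, 823 and 864 in WT. These stood for 104, 319 and 401 reads in KO and 444, 1004 and 1192 in WT, so it is also the best counted region here. The 3 WT values were close together and far above every KO value (247 ± 100.2 against 824.9 ± 38.6, SD, n = 3; limma log2 fold change -1.83 ± 0.33, SE, adjusted p = 0.0471). Together with the region over Pcdhb21 and Pcdhb22 it made up 22.8% of the listed sequence of the block and 27.4% of its mean WT reads.

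Of the 24 regions under Pcdha7-g, 5 others passed limma as lower. Upstream of Pcdhb1 the region from 37240201 to 37243700 had 61.1, 58.9 and 92.5 reads in KO and 161, 235 and 191 in WT, listed by the authors at -1.47 (limma adjusted p = 0.0471). Between Pcdhb14 and Pcdhb15 the region from 37461401 to 37464300 had 58.6, 39.7 and 63.0 in KO and 142, 159.9 and 145 in WT, also listed at -1.47 (limma adjusted p = 0.0471). KO and WT did not overlap in either region. The region from 37427701 to 37430900, between Pcdhb11 and Pcdhb12, had 109.5, 50.6 and 48.8 reads in KO and 204, 165 and 182 in WT (limma adjusted p = 0.0471). In it the first KO value was the high one. The remaining 2 that passed limma lay just after Pcdhb9 (37404201 to 37405900, listed at -1.31) and downstream of the beta genes (37554701 to 37557200, listed at -1.38). The latter had 66.2, 42.3 and 94.97 reads in KO and 115, 228 and 187 in WT. It had the highest WT mean per kb of the 45 regions, at 70.7.

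Of the 6 regions with the smallest differences under Pcdha7-g, 4 lay downstream of the beta genes. That from 37543401 to 37544800 was listed at -0.66, with 61.1, 21.4 and 52.1 reads in KO and 62.0, 68.9 and 81.9 in WT. The first KO value came close to the lowest WT value. Also downstream were the regions at 37592001 to 37593700, 37570701 to 37573500 and 37617301 to 37618300, listed at -0.70, -0.75 and -0.80. The region from 37248101 to 37250200, upstream of Pcdhb1, was listed at -0.79, and that from 37348301 to 37349500, between Pcdhb7 and Pcdhb8, at -0.80. None of these 6 passed limma. The last region of the block, from 37657701 to 37658700, had 5.09, 9.59 and 45.4 reads in KO and 37.2, 41.0 and 44.95 in WT. Its KO values were widely spread, the first stood for 2 reads, and the third was above all WT values.

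**Figure D3:**
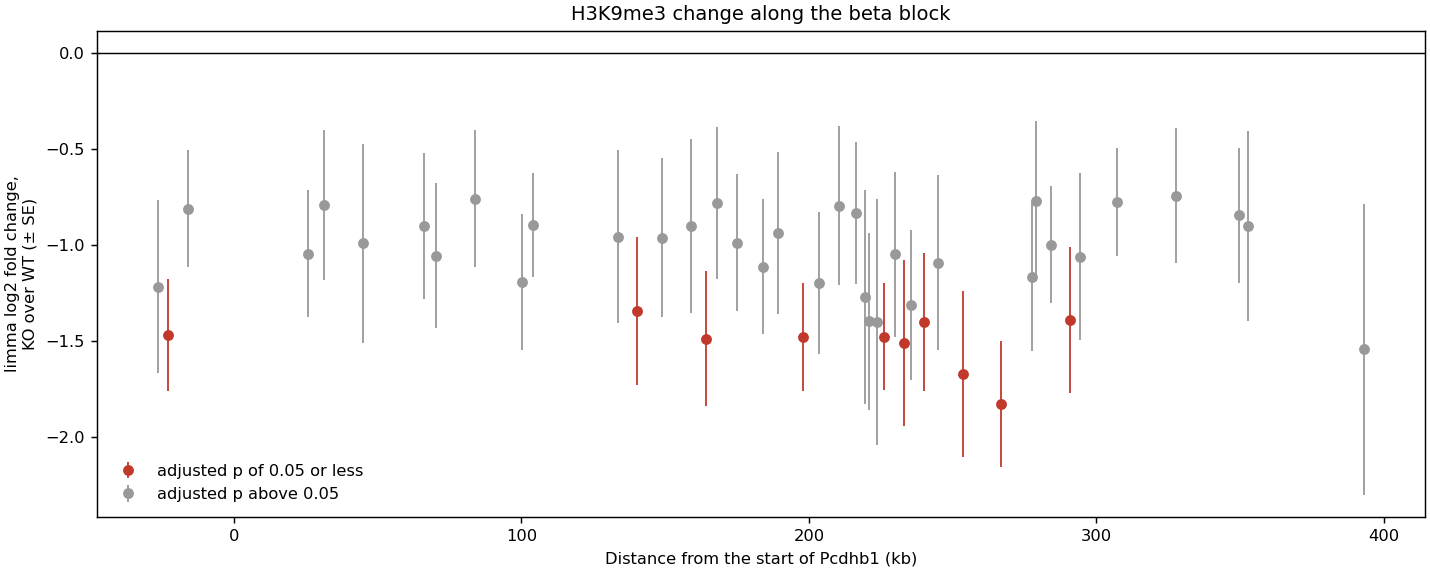
The y axis is the limma log2 fold change of H3K9me3, KO over WT, with its standard error, and the x axis the distance of the region's centre from the start of Pcdhb1 in kb. All 45 points lie below 0, between -1.83 and -0.74, and the 10 that passed limma (red) include the 2 lowest, at the end of the cluster.

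KO means ran from 15 to 32.05 normalised reads per kb (median 22.1) and WT means from 36.2 to 70.7 (median 44.3). Over all listed regions the medians were 22.7 and 41.3. Across the 45 regions, a higher WT level per kb went with a larger fall (Pearson r = -0.63, Spearman rho = -0.58 against the log2 fold change). A higher KO level per kb went with a smaller fall (0.60 and 0.62), and a greater length with a larger one (-0.56 and -0.36). The log2 fold change is made from the same WT and KO values, and the regions share libraries. They were also selected for a difference, so these relations are a description only.

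The listed positions did not behave alike within a genotype. The second KO value was the lowest of the 3 KO values at 34 of the 45 regions (75.6%), against 35.5% of all listed regions. The third KO value was the highest at 32 regions (71.1%, against 73.8%). In WT the second value was the highest at 31 regions (68.9%, against 46.2%), and at 19 of the 21 under Pcdhb symbols. Summed over the 45 regions, KO values came to 23.1, 14.2 and 28.1 normalised reads per kb and WT values to 46.9, 57.1 and 48.2. The part of these shifts in the differences between genotypes was not tested beyond the fits that leave out a value.

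The neighbouring clusters were lower too. By symbol, 24 regions under alpha symbols had a median log2 fold change of -1.39 and 13 regions under gamma symbols one of -2.18, all listed as lower, beside -1.0 for Pcdhb and -1.03 for Pcdha7-g. limma passed 10 of the 24, 10 of the 13, 4 of the 21 and 6 of the 24. In WT the gamma regions had a median of 60.4 normalised reads per kb and in KO 13.8. No difference between the clusters was tested, since the regions share their libraries. Beta genes resemble one another in sequence. Since no source used here says where reads that match several of them were counted, the values of single genes are uncertain.

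**Figure D4:**
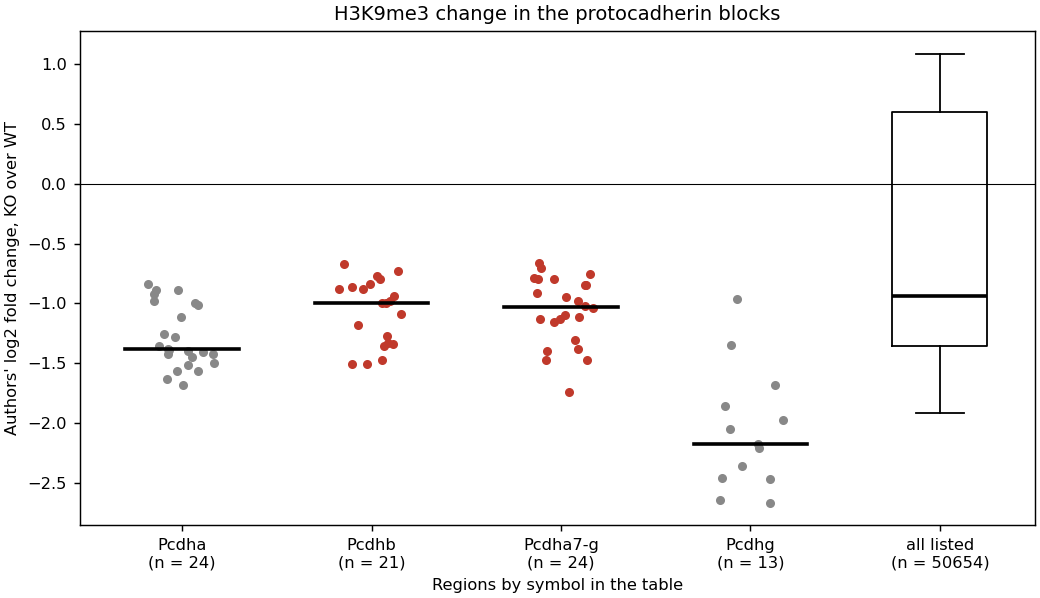
Each point is 1 region with the authors' log2 fold change, KO over WT, on the y axis, grouped by symbol on the x axis, with black lines at the medians. The box shows all 50654 listed regions, with the median, quartiles and whiskers at the 5th and 95th percentiles. The Pcdhb and Pcdha7-g points (red) lie between -1.74 and -0.66, and their medians of -1.0 and -1.03 lie above those of Pcdha and Pcdhg.

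No H3K27ac peak was called over the beta genes in either genotype. Within the window of 450 kb the KO lists held 2, 3 and 1 peaks and the WT lists 3, 3 and 2, in lists of 11446 to 42651 peaks. In all 6 libraries 0 of these peaks overlapped a listed H3K9me3 region or came within 1 kb of one, and 0 lay in or within 1 kb of a beta gene. The lower H3K9me3 was thus not accompanied by a called H3K27ac peak there. The share of all listed H3K9me3 regions that such a peak overlapped is not given here. The depth of these libraries is unknown, and a signal below the authors' calling threshold would not be seen. No difference between genotypes was detected in the number of peaks (mean and SD of 2.0 ± 1.0 in KO and 2.67 ± 0.577 in WT, n = 3; p = 0.7 in a two-sided exact permutation test, which cannot go below 0.1) or in the bases they covered (619 ± 407 against 686 ± 350.2, exact permutation p = 0.8). In replicates 2 and 3 alone, which were all male, the difference in peaks was -0.50 per library, against -0.67 in all.

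The peaks merged into 3 regions, all outside the beta genes. The first (37217937 to 37218218) lay 30.3 kb past the end of the alpha cluster and 46.8 kb before Pcdhb1, and had a peak in KO replicate 2 and in WT replicates 1 and 2. Its fold enrichment, the authors' value per peak, was 6.19 in KO replicate 2 and 6.16 and 3.88 in the WT libraries. The second (37643602 to 37644210) overlapped one end of Taf7, which encodes a subunit of the general transcription factor TFIID. It had a peak in 5 of the 6 libraries, with a fold enrichment of 12.1 and 8.40 in KO replicates 1 and 2 and of 10.9, 7.21 and 6.20 in WT. The third (37644355 to 37644827), 151 bp beyond Taf7, had a peak in all 6 libraries. Its fold enrichment was 6.26, 7.65 and 6.23 in KO and 8.33, 9.15 and 5.91 in WT, so the genotypes overlapped. None of the 3 was present in every KO and no WT library (0.124% of all 62979 merged regions) or the reverse (0.0460%). Over 5460 windows of this length on the autosomes the median was 8 merged regions. Since 31.8% of them held 3 or fewer, a count this low was not rare.

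Silent and active marks lay close together at this edge of the block. Slc25a2, a mitochondrial carrier gene next to Taf7, had a listed H3K9me3 region of its own (37637201 to 37640500) that ended at the edge of Taf7. Its values were 15.3, 34.9 and 84.9 reads in KO and 168, 161 and 138 in WT, 45.02 ± 35.9 against 155.9 ± 15.6 (SD, n = 3; limma log2 fold change -2.08 ± 0.53, SE, adjusted p = 0.0471). All KO values were below all WT values, although they differed among themselves. It is the only listed region of the window that is not under a Pcdhb or Pcdha7-g symbol. The H3K27ac peaks beyond it were present in both genotypes.

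In the adjoining window over the gamma cluster the KO lists held 22, 25 and 9 H3K27ac peaks and the WT lists 8, 11 and 3. KO replicate 3 lay within the WT counts, and the shortest lists of each genotype gave the lowest count. The gamma count less the beta count was 20, 22 and 8 in KO and 5, 8 and 1 in WT, a comparison added after the data were seen (mean and SD of 16.7 ± 7.57 and 4.67 ± 3.51, n = 3; two-sided exact permutation p = 0.2, with 0.1 the smallest it can give). With genotypes exchanged only within the number that the titles share, the exact permutation p was 0.333 and cannot go below 0.167. The gamma count alone differed by 11.3 peaks per library between KO and WT, and the gamma count less the beta count by 12, so the beta count added little. Of 30 merged regions in the gamma window, 4 had a peak in every KO and no WT library and 0 the reverse. The beta window had 0 and 0 of 3. Over all merged regions 0.124% had a peak in every KO and no WT library, so 3 regions are too few for a contrast with gamma. With 3 libraries a genotype neither form of the test could reach 0.05.

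**Figure D5:**
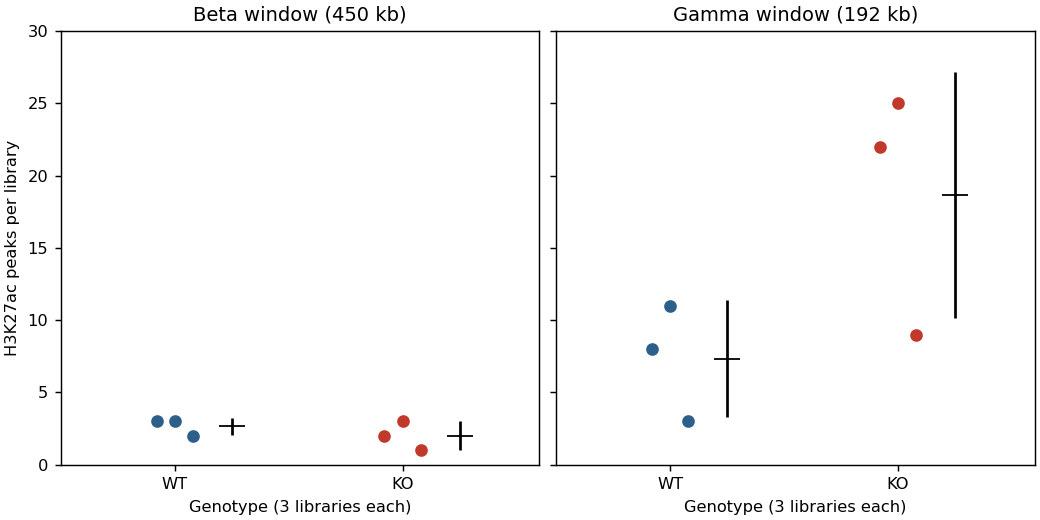
The y axis is the number of H3K27ac peaks per library and the x axis the genotype, for the beta window (left) and the gamma window (right). Points are libraries, and the black marks are means with SD. Beta counts lie between 1 and 3 in both genotypes, and gamma counts between 3 and 11 in WT and between 9 and 25 in KO.

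Genes chosen here as possible regulators of clustered protocadherins were mostly without a listed region, as were most protein-coding genes. Of 27 such genes 4 had regions, where 21.7% of all 21900 protein-coding genes did. These 23 regions were each listed as lower, beside 71.1% of all listed regions, and 9 of the 23 passed limma, beside 14.9% of all. The genes were Atf7ip, a partner of SETDB1 (9 regions, from -2.88 to -1.29), Lrif1 (8 regions), Smchd1, a silencing factor of the X chromosome and of this cluster (3 regions, from -2.26 to -1.51), and Stag1, a subunit of cohesin (3 regions). Of 12 protocadherin genes outside the cluster, 5 had regions, and all 22 regions were listed as lower, with a median of -1.07 beside -0.94 for all listed regions. Pcdh9 had 10 of these, from -2.22 to -0.80, and Pcdh15 had 8. limma passed 4 of the 22, a share near the 14.9% of all listed regions.

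The labelled cell type was looked at by H3K27ac peaks in or within 1 kb of marker genes. The share of all genes with such a peak is not given here, so the counts do not show whether a cell type was present. Progenitor markers had a peak at 6 to 9 of 10 genes in the KO lists and 4 to 10 in the WT lists. Markers of the ganglionic eminence had one at 0 to 2 of 12 genes in KO and 1 to 4 in WT, and Dlx2, Dlx5, Dlx6, Gsx2, Gad2, Nkx2-1, Lhx6 and Sp8 had none in any list. Astrocyte markers had peaks at 3 to 4 of 4 genes in KO and 1 to 3 in WT, and those of the oligodendrocyte lineage at 2 to 5 of 6 and 1 to 5. Markers of cortical excitatory neurons had peaks at 0 to 1 of 8 genes and 0 to 2, those of microglia and blood at 0 to 2 of 6 in both, and endothelial and mural markers at 1 to 2 of 5 in both. The part of cell composition in the results was not tested. In bulk cultures, fewer cells with a mark and less of the mark per cell cannot be told apart.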

How the data were processed

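H3K9me3 and H3K27ac were profiled by native ChIP-seq in 12 libraries. Per the submitters' processing notes, the build was mm10 and the tools included Bowtie2 2.3.4.3 and MACS2. Which tool compared H3K9me3 between genotypes is unstated in the labels. The authors deposited 1 H3K9me3 table of 50654 selected regions, with normalised counts joined in 1 cell per genotype and group means as a normalised signal. The table's log2 fold changes (KO over WT) and p-values, named in the file headers, are the authors' own for each region. These p-values matched a G-test on summed values (largest difference 0.00674 on the log10 scale over 38105 regions). For H3K27ac the authors deposited 1 peak list per library, with a score, a fold enrichment (a ratio) and -log10 p and q values per peak.

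All listed regions were fitted in limma 3.58.1 (R 4.3.3), with a mean-variance trend, after a log2(value + 1) step, so its fold changes are on that scale. limma-voom used the recovered reads with library sizes that keep the authors' scaling. Both fits were run on simulated data in which most regions did not change. The listed regions here were selected for a difference and were mostly lower, so that run does not show how reliable the calls are. Peaks of the 6 lists were merged at an overlap of 1 bp. Gene positions came from RefSeq for GRCm38.p6, in which all 22 Pcdhb symbols were found.

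Named regions were the Pcdhb region of each gene with the smallest limma p, the 5 largest and 5 smallest fold changes under Pcdha7-g (6 with a tie), the highest and lowest WT means and all merged H3K27ac regions present in 2 libraries of a genotype. Regions chosen beyond these, such as the last of the block, were named after their values were seen. The regions, gene lists and tests were chosen with earlier results of these data known. Alternatives covered pseudocount, filter, scaling, trend, chromosomes, thresholds, overlap rule and left-out values.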

Additional observations from a re-analysis of the deposited data

How the results depend on the processing

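The 10 regions that passed limma became 19 with a pseudocount of 5. With limma-voom on recovered reads the count was 43, or 95.6%, against 58.0% of all listed regions. It was 0 under median-ratio scaling (limma, 1 at an unadjusted p of 0.05) and 0 without the mean-variance trend (limma, 29 at an unadjusted p of 0.05). Leaving out each listed value in turn gave 0 to 40. The count stayed within 1.5 times of 10 with a pseudocount of 0.5 (8), a minimum mean of 20 (10) and autosomes alone (15). Apart from limma-voom, the share of all listed regions is not given for these settings. The changes cannot be called particular to the block. All 45 log2 fold changes were below 0 in each of these limma settings except median-ratio scaling, where 37 were. The 8 others were then at 0.0090, 0.054, 0.046, 0.050 and 0.074 under Pcdha7-g and at 0.027 (Pcdhb2), 0.038 (Pcdhb12) and 0.020 (Pcdhb15). The cause was not tested.

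Of the 45 regions listed as lower, 24 remained at a log2 fold change of -1 or less (46.2% of all listed) and 16 under median-ratio scaling. Left-out libraries moved the KO less WT difference in H3K27ac peaks between -1.17 and -0.17 per library and that in bases covered between -235 and 166, so the sign of the latter turned without KO replicate 3 or WT replicate 1. Peak thresholds, the list length, the overlap rule and replicates 2 and 3 alone, all male, left 0 regions in every KO and no WT library. With the number shared by the H3K27ac titles as a block, chosen after seeing the data, the differences stayed at -0.667 peaks and -66.7 bases (exact permutation p = 0.667 for both, smallest possible 0.167). No such block could be used for H3K9me3, whose values are not tied to animals. The recovered reads limit the first KO value most, and H3K27ac depth is unknown.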
